A study of Mus musculus with 12 samples.

Results

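The baseline m6A map described here is the set of N6-methyladenosine (m6A) peaks that were called in both immunoprecipitation (IP) libraries of scramble control embryonic stem cells. It held 4408 regions. They were formed by 4591 of the 7886 scramble peaks of the first library and 4493 of the 5438 scramble peaks of the second library, and the series as a whole listed 33072 peaks over 6 IP libraries. A region was a group of peaks that overlapped by at least 1 nt on the same strand and included at least 1 peak of each scramble library. The choice used only the positions of the peaks, so that presence in both libraries is the rule and not a finding.

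The cells were J1, a mouse embryonic stem cell line, grown with serum and leukemia inhibitory factor on irradiated mouse embryonic fibroblasts, so that feeder RNA may be present in each library. They had been infected with a lentivirus that carried a scramble shRNA and selected with puromycin. Infection and selection, but not the scramble shRNA, were shared with the Mettl14 and Mettl3 knockdown cells of the same series. Poly(A) RNA was fragmented and pulled down with an anti-m6A antibody, and each IP library was compared with an input library. No source used here states whether a selected line was 1 clone, and the series design text speaks of a single biological replicate, so that the spread between the 2 scramble libraries may be technical. The tables hold 2 sets of libraries that share no member, and the names first and second library only separate the sets.

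m6A is an internal mark of messenger RNA that is written by a complex in which METTL3 is the catalytic subunit and METTL14 its RNA-binding partner, with WTAP as a further subunit. It is read by proteins of the YTH domain family and removed by the demethylases FTO and ALKBH5. The mark is known for a sequence context whose best-known form is the pentamer GGACT in DNA letters, for long exons and for the neighbourhood of stop codons. In embryonic stem cells it is known for shortening the lifetime of mRNAs of developmental and pluripotency regulators.

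The 25 nt around a GGACT in 14 of the regions are printed to show what the map looks like at the level of sequence. Shown first are the 6 regions of Soga1, a protein-coding gene whose regions ran from the 5' UTR to the 3' UTR, then 6 regions of pluripotency genes and 2 of the regions with the highest enrichment. Each is the GGACT nearest to the midpoint of the first library's peak, read 5′ to 3′ on the transcript strand from GENCODE M21 transcripts, with mm10 coordinates and the pentamer in capitals. The part of the transcript named on each line is where the printed GGACT lies, which in broad peaks can differ from the class of the peak's midpoint: the Sox2 GGACT lies 485 nt from the midpoint, in the 3' UTR, while the midpoint is in coding sequence. The Chst3 GGACT lies within the first library's peak, but only its first base lies within the second library's peak. A match is a description and not a mapped methylated base.
Soga1 5' UTR, chr2:157079228-157079252, minus strand: ggcctcagccGGACTgggagtccga
Soga1 coding sequence, chr2:157078530-157078554, minus strand: ccgaggtgtcGGACTgcgcgtcgga
Soga1 coding sequence, chr2:157040260-157040284, minus strand: ctgaggctggGGACTctgcgcagtg
Soga1 coding sequence, chr2:157021346-157021370, minus strand: tttccacccgGGACTgtagccacat
Soga1 3' UTR, chr2:157018111-157018135, minus strand: tgggtgaccaGGACTgggcctcaaa
Soga1 3' UTR, chr2:157016883-157016907, minus strand: aaaacaggatGGACTtgtagaatgt
Sox2 3' UTR, chr3:34651371-34651395, plus strand: tgtgagggctGGACTgcgaactgga
Klf4 coding sequence, chr4:55530143-55530167, minus strand: ctccccaccaGGACTacccctacac
Myc coding sequence, chr15:61989829-61989853, plus strand: cctctgaaaaGGACTtattgaggaa
Sall4 coding sequence, chr2:168756473-168756497, minus strand: agctgggcacGGACTccatcctgta
Nr5a2 coding sequence, chr1:136845629-136845653, minus strand: ccgccctgctGGACTacacggtttg
Tbx3 coding sequence, chr5:119682908-119682932, plus strand: cggtggctgtGGACTcggggtcgga
Chst3 coding sequence, chr10:60185837-60185861, minus strand: cgcaggtggaGGACTggatccagaa
Pknox2 3' UTR, chr9:36892541-36892565, minus strand: cgtgagatctGGACTcaccgaatac

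The shared peaks made up 58.2% of the first library's peaks (95% Wilson interval 57.1 to 59.3) and 82.6% of the second library's (81.6 to 83.6). They covered 3730.5 and 3829.2 kb. Of the 4408 regions, 4189 consisted of 1 peak in each library, and the midpoints of these pairs lay a median of 31 nt apart, with 155 nt as the 90th percentile. The tables do not give the number of reads per library, so depth was unknown, and intervals on shares of peaks cover counting error only. Scramble tag counts and false discovery rates were listed only for peaks that a knockdown table lacked, which were 1566 of the 4591 and 2078 of the 4493 shared peaks. Among those, the median was 60 tags in the first library and 71 in the second. Removing the peaks whose listed false discovery rate was above 1% left 2505 regions, and this removal could reach only peaks that had been lost in a knockdown table.

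Peaks of the map were wide. Median width was 691 nt in the first library (quartiles 465.5 and 988) and 725 nt in the second (483 and 1045). Peaks called in 1 scramble library alone had medians of 375 and 380 nt. Width also went with being shared: in the first library 26.4% of the peaks in the bottom quartile of width (54 to 343 nt) and 84.8% of those in the top quartile (831 to 7808 nt) belonged to the map, and in the second 60.6% and 96.4%. A wide peak meets an overlap of 1 nt more readily, so the rule itself favours wide peaks. Its part in these differences of width was not tested. The widest peak was 7808 nt long and lay in Spen, which encodes a large transcriptional corepressor.

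Enrichment, the authors' ratio of IP to input within a peak, had a median of 15.5 in either library (quartiles 9.62 and 28.2 in the first, 9.55 and 29.4 in the second). Peaks called in 1 library alone had the higher medians of 24.8 and 45.7. In the first library 37.8% of the peaks in the top quartile of enrichment belonged to the map, against 64.2% of those in the bottom quartile, and in the second 61.2% against 93.5%. Within the map, enrichment and width went in opposite directions, with Spearman's rho of -0.49 over 4591 peaks and -0.57 over 4493 peaks. These are descriptions across peaks of 1 library, which share its depth and its input.

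Across the 4189 one-to-one pairs, the 2 libraries gave like values. Pearson's r of log2 enrichment was 0.80 and Spearman's rho was 0.84. The median log2 ratio of the second over the first library was -0.01, with quartiles of -0.38 and 0.39. The 2 enrichments lay within 1.5-fold of each other in 66.1% of pairs and within 2-fold in 84.6%. Widths lay within 1.5-fold in 87.7%. The points share a gene and an RNA source, and the correlations carry no test.

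**Figure D1:**
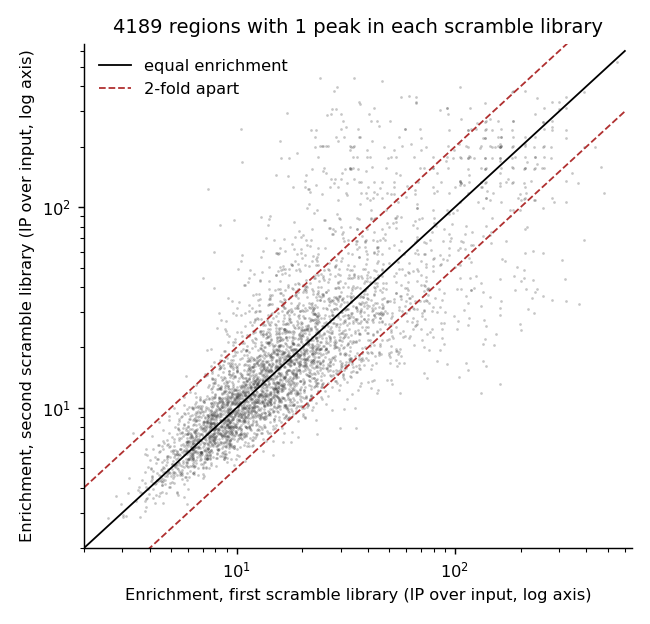
Enrichment (IP over input, log axes) in the first and second scramble library for the 4189 regions with 1 peak in each; each point is a region. Of these, 84.6% lie between the dashed lines that mark a 2-fold difference.

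The highest enrichments in both libraries, among regions at least 300 nt wide in each, belonged to genes of several kinds. A peak of Cep128, a centrosomal protein gene, had 277.8 in the first library and 251.7 in the second (chr12, 91317860 to 91318340). It lay in an intron of the transcript used and in an exon of another Cep128 transcript. Nrg2, which encodes a neuregulin, had 254.7 and 245.1 in its coding sequence. Chst3, a chondroitin sulfotransferase gene, had 237.2 and 348.6 in its coding sequence (chr10, 60185814 to 60186341). Pknox2, a homeobox gene, had 254.7 and 200.5 in its 3' UTR, and Mdfic, which encodes a myogenic factor inhibitor, had 183.5 and 198.6 in its 3' UTR. Tril, a Toll-like receptor interactor, had 161.0 and 207.5. The order of these genes differed between the 2 libraries. Where tags were listed at these 6 genes and the variable exon described with the protocadherins, they ran from 24 to 42. Some values recurred exactly: 254.65 for Nrg2 and Pknox2 in the first library, and 198.57 for Mdfic and that variable exon in the second. Input counts are not among the listed values, and how far low input set these ratios was not tested.

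Most of the map lay in coding sequence and around stop codons. On 1 transcript per gene, 58.3% of the 3851 exonic peaks of the first library (56.7 to 59.8) had their midpoint in coding sequence, and 58.2% of the 3772 of the second. Coding sequence made up 46.8% of the length of the same transcripts. The window of 200 nt around the stop codon held 14.5% of exonic peaks in the first library (13.4 to 15.6) and 14.4% in the second, in 4.25% of the length, which is a ratio of 3.40 and 3.39. The rest of the 3' UTR held 21.8% and 21.6% of the peaks in 39.5% of the length. The 5' UTR held 2.05% and 1.99% in 4.32% of the length, and the window around the start codon 1.95% and 2.20% in 4.06%. Peak shares were thus above the length share in coding sequence and at the stop codon, and below it in both UTRs and at the start codon, in either library. Of the one-to-one pairs, 92.6% had the same class in both libraries.

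The share at the stop codon rests on how a broad peak is reduced to a class. With a window of 400 nt it was 26.7% and 25.9%, in 8.43% and 8.42% of the length, so that the ratio to length was 3.17 and 3.08. When a peak was given the class that covered most of it, the mean over the libraries was 6.55% in place of 14.4%.

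Midpoints were densest just past the stop codon. In the 100 nt after it the first library had 314 midpoints, or 1.04 per kb of transcript, and the second 295, or 0.98 per kb. Density was 0.72 and 0.71 per kb at 200 to 300 nt before the stop codon and 0.52 and 0.53 per kb at 200 to 300 nt after it. At 500 to 600 nt after the stop codon the first library had 0.19 per kb, while at the same distance before it the density was 0.47. The decline was therefore steeper in the 3' UTR than in the coding sequence. The median midpoint lay 335 nt before the stop codon in the first library and 340 nt before it in the second.

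**Figure D2:**
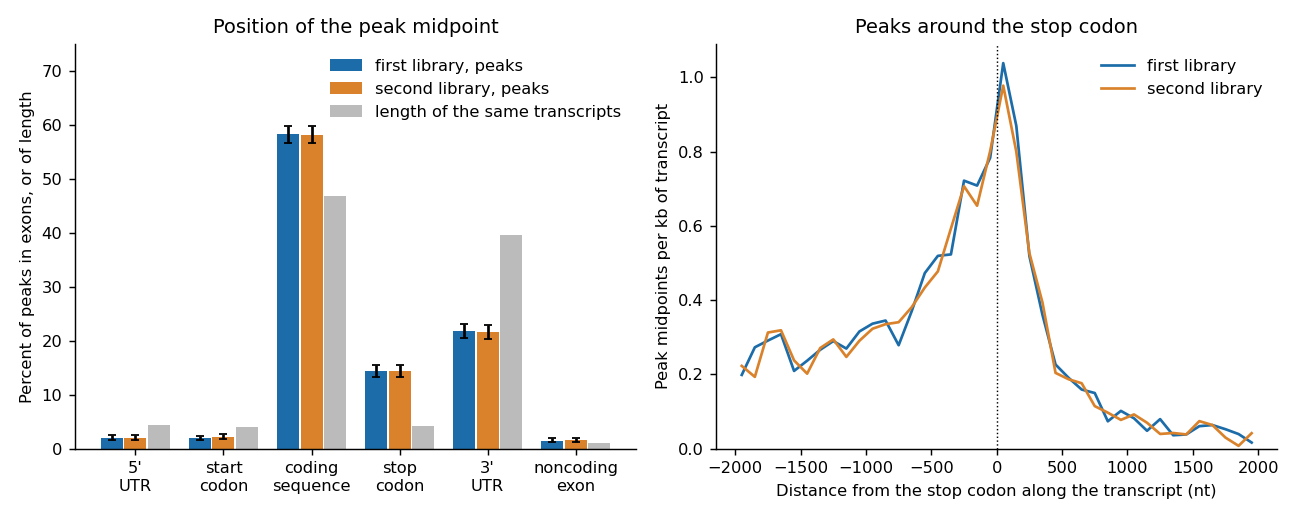
Left, percent of exonic shared peaks with their midpoint in each transcript class in both scramble libraries, with 95% Wilson intervals, beside the percent of the length of the same transcripts (gray, transcripts of the first library). Right, peak midpoints per kb of transcript by distance from the stop codon in bins of 100 nt; both lines peak just after the stop codon, at 1.04 and 0.98 per kb.

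Exon structure went with the map. Of peaks on transcripts with several exons, 65.3% (63.7 to 66.8) lay in the last exon in the first library and 65.5% in the second, where last exons held 53.0% of the length. Of 1037 and 1010 peaks in internal exons, 95.7% and 96.1% lay in exons of 400 nt or more. Such exons were 5.68% and 5.69% of all internal exons of these transcripts and held 32.0% of their length. The internal exons that held a peak had a median of 960 and 955.5 nt, and all internal exons of the same transcripts a median of 132 nt. Peaks of the map were themselves wider than most internal exons, and the part of this width in the preference for long exons was not tested.

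Gene structure also went with the presence of a region. Among all 21951 protein-coding genes of the annotation, 14.7% had a region of the map. The share was 9.34% among genes whose longest internal exon was under 200 nt and 48.2% (43.7 to 52.7) among the 469 genes with an internal exon of 1600 nt or more. By transcript length it went from 1.12% under 1000 nt to 34.6% from 8000 nt. Genes without an internal exon gave 12.3% (11.3 to 13.4), above those with short internal exons, at a median transcript of 1710.5 nt. The median transcript was 2008 nt among genes whose longest internal exon was under 200 nt and 6726 nt in the group of the longest exons. Within transcripts of at least 4000 and under 8000 nt, the share was 21.3% (18.9 to 23.8) for the group under 200 nt and 48.4% (44.9 to 52.0) with an internal exon of 800 nt or more, and from 2000 to under 4000 nt it was 12.7% (11.5 to 14.0) and 25.6% (21.9 to 29.7). These length groups were formed after seeing the data.

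Peaks in noncoding exons and outside exons were narrower and more enriched than those in coding sequence. In the first library the median enrichment was 13.6 in coding sequence, 14.5 at the stop codon, 14.4 in the 3' UTR, 20.1 in introns, 29.8 in noncoding exons and 39.5 for the 436 peaks with no listed gene. The second library gave 13.4, 15.0, 14.1, 19.7, 31.4 and 42.0. Median widths in the first library were 809 nt in coding sequence, 574 nt at the stop codon and 404.5 nt for peaks with no listed gene. The label of a class was not always its last word: of 240 regions in introns of the transcript used, 140 lay in an exon of another transcript of the same gene. Of 413 regions with no listed gene, 97 lay in an exon of a GENCODE gene on the same strand and 137 had an annotated gene on the opposite strand alone, while 159 had none on either strand.

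The pentamer GGACT, searched on the transcript strand, was more frequent in peaks than in the rest of the same transcripts. It occurred in 69.9% of exonic peaks of the first library (68.4 to 71.3) and in 70.8% of the second. Among the 3063 and 2966 peaks whose transcripts had room for a stretch of the same length outside any scramble peak, 67.0% and 68.1% held it, against 48.3% and 49.3% of such stretches. In the central 200 nt of a peak the share was 32.8% (31.4 to 34.3) in the first library and 33.4% in the second, beside 18.2% of the 200-nt stretches outside peaks in either library. The looser DRACH pattern (any base but C, a purine, AC, then any base but G), of which GGACT is 1 of 18 forms, was in 98.9% and 98.7% of central windows and in 97.3% of the stretches, so at this length it hardly separated peaks from the rest.

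The forms of DRACH differed in order. In central windows of the first library GGACT had the highest ratio of peaks to stretches at 1.80, followed by GGACC at 1.69, GGACA at 1.62 and AGACT at 1.45. The lowest were TAACA at 0.60 and TAACT at 0.68. The second library had the same first 4 forms in the same order, at 1.84, 1.67, 1.58 and 1.43. Density of GGACT along the transcript was 2.28 matches per kb in the 50 nt after the midpoint of first-library peaks and 1.16 per kb at 950 to 1000 nt before it. For GGTCA, which has the same letters in another order, the values in the 50 nt after the midpoint were 0.94 and 0.96 per kb in the 2 libraries.

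**Figure D3:**
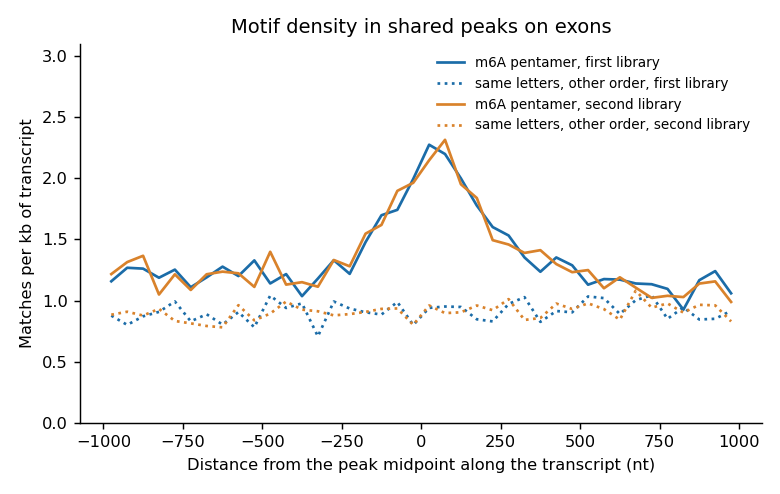
Matches per kb of transcript for the m6A pentamer and for a pentamer of the same letters in another order, by distance from the midpoint of shared exonic peaks in bins of 50 nt, in both scramble libraries. The m6A pentamer reaches 2.28 per kb in the first library just after the midpoint, where the control pentamer is at 0.94.

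GGACT content differed by position and by enrichment. The central window held it in 42.0% of first-library peaks at the stop codon (38.0 to 46.2), in 37.0% of those in the 3' UTR and in 28.7% of those in coding sequence (26.9 to 30.6). The second library gave 41.8%, 38.4% and 29.3%. Stretches outside peaks held it in 17.0% in the 3' UTR and 19.5% in coding sequence in the first library. No such stretch was available for the stop codon class, so its share has no comparison of its own. By quartile of enrichment the share went from 28.3% in the lowest (2.58 to 9.15) to 38.0% in the highest (23.4 to 481.6) in the first library, and from 29.0% to 38.4% in the second. Median width went from 908.5 to 524.5 nt over the same quartiles of the first library.

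The map covered 3290 genes with a GENCODE entry, of which 3217 were protein coding. One region was found in 2727 genes, 2 regions in 466 and 3 or more in 97, so that 17.1% had several. Genes with several regions mostly carried them within coding sequence alone (201 of 563) or in coding sequence and 3' UTR (121). In 74 further genes both libraries had a peak but at sites that did not overlap. With peaks above a listed false discovery rate of 1% removed, 2086 genes remained, 11.5% of them with several regions. Counting all peaks of the first library alone, 26.4% of 4906 genes had several.

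Soga1, a gene linked to the suppression of autophagy, had 6 regions. In the order of transcription their enrichments were 82.6 and 17.2 in the 5' UTR, 33.9 and 38.6, 35.1 and 16.1, and 17.9 and 19.4 in coding sequence, and 20.4 and 9.99, and 13.2 and 17.2 in the 3' UTR, with the first library given first. The 5' UTR region was the highest of the 6 in the first library but not in the second. Setd1b, a histone H3 lysine methyltransferase gene on chromosome 5, had 5 regions in coding sequence, between 6.23 and 16.9 in the first library and between 9.07 and 13.6 in the second. Spen had 5 regions, with 9.52 and 9.45 in its widest one. Celsr3, an atypical cadherin, had 4 coding-sequence regions between 18.9 and 43.1 in the first library and between 18.02 and 28.5 in the second. Alpk3, a kinase gene, and Cdk13, a transcriptional cyclin-dependent kinase gene, had 4 each.

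The largest numbers of regions were listed for Pcdhgc4 and Ahnak2. The authors' tables list 10 regions under Pcdhgc4 on chromosome 18, but each of the 10 lay in an exon of a different gene of the gamma protocadherin cluster in GENCODE M21, namely Pcdhga3, Pcdhga5 to Pcdhga9, Pcdhga12, Pcdhgb2, Pcdhgb4 and Pcdhgb8. Gamma protocadherins are neuronal adhesion proteins whose variable exons are each read from a promoter of their own and spliced to shared constant exons. Their enrichments ran from 35.5 to 275.2 in the first library and from 24.6 to 198.6 in the second, and the highest in each library was the region in the Pcdhga6 exon. Ahnak2, a large scaffold protein gene on chromosome 12, had 8 regions between 15.1 and 39.5 in the first library and between 17.2 and 50.6 in the second, 6 of them outside exons of the transcript used but in an exon of another Ahnak2 transcript.

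Members of 13 gene lists were then looked up in the map. The tables hold no expression values, so a gene without a region may be unmethylated or too little expressed, and in bulk RNA fewer cells of a type and less RNA per cell cannot be told apart. Beside the 14.7% of all protein-coding genes, a region was found in 29 of 48 genes of developmental signalling, 14 of 26 immediate early and stress genes, 9 of 20 of the m6A machinery, 15 of 40 chromatin regulators, 11 of 33 pluripotency genes and 8 of 24 ectoderm and neural genes. It was found in 3 of 27 mesoderm and endoderm genes, 2 of 22 long noncoding RNAs with an entry, 2 of 37 cell cycle genes and 1 of 22 Hox genes. None of the 62 cytosolic ribosomal protein genes had a peak in either scramble library, and none of the 29 housekeeping genes had a region, though Gusb had a peak in the second library alone. The lists were not matched to all genes for transcript or exon length, which went with the presence of a region. The shares have no test, and nothing particular to a list is drawn from them.

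**Figure D4:**
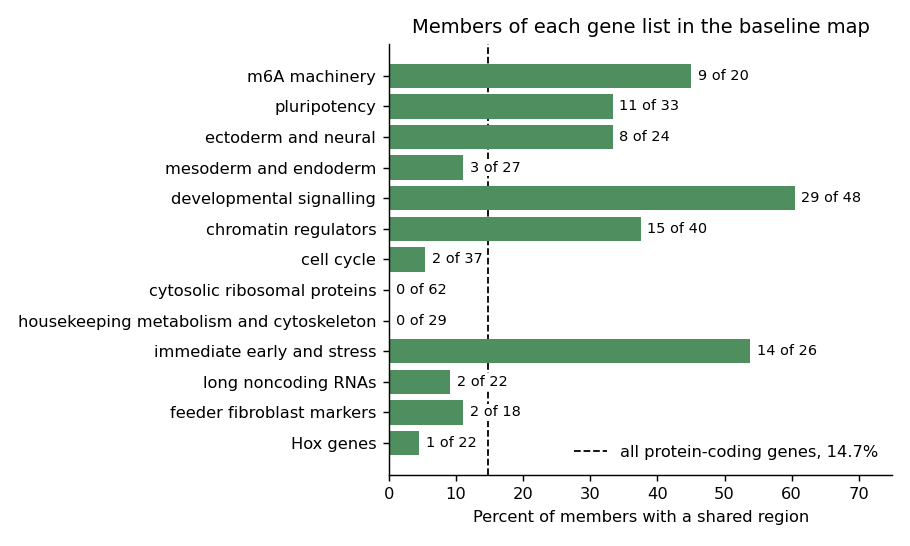
Percent of the annotated members of each of 13 gene lists that had a region found in both scramble libraries, with the count at the end of each bar; the dashed line is the 14.7% of all protein-coding genes. Developmental signalling stands highest with 29 of 48, and ribosomal proteins and housekeeping genes are at 0.

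As a check of the label, 4 of 12 stem cell markers (Sox2, Klf4, Sall4 and Fgf4) and 2 of 18 fibroblast markers (Pdgfrb and Twist1) had a region. Pou5f1, Nanog, Esrrb and Zfp42, defining markers of embryonic stem cells, had no peak in either library, as did the collagen genes Col1a1, Col1a2 and Col3a1. A further collagen gene of the fibroblast markers, Col5a1, and Pdgfra had a peak in the first library alone. Counting all peaks of the first library, 4 of 12 stem cell markers and 4 of 18 fibroblast markers had a peak. A peak needs methylation as well as expression, so these counts do not measure the share of feeder RNA. The Pdgfrb region, in the 3' UTR of a platelet-derived growth factor receptor, had enrichments of 37.9 and 35.8. The Twist1 region, in a mesenchymal transcription factor gene, had 23.5 and 37.2.

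The pluripotency genes of the map had broad peaks with low enrichment. Median enrichment over their 12 regions was 6.04 in the first library and 5.11 in the second, beside 15.5 over all shared peaks, and median width was 1137.5 and 1131 nt. This was not theirs alone. Medians were 8.94 and 8.36 for chromatin regulators, at widths of 1161 and 1231 nt, and 9.75 and 7.47 for the m6A machinery. Immediate early and stress genes had 8.5 and 10.5, and developmental signalling 11.9 and 11.4. The ectoderm and neural, mesoderm and endoderm, Hox and fibroblast lists were above 15.5 in both libraries. Sox2, a core pluripotency factor, had a peak of 2326 nt with an enrichment of 2.96 in the first library (chr3, 34649736 to 34652061). In the second library its peak was 2273 nt with 3.30. Both midpoints lay in coding sequence, and both peaks were wider than the 2057 nt of its transcript. Klf4, a reprogramming factor, had 4.58 and 3.79 in its coding sequence. Sall4, a zinc finger factor of early development, had 4.22 and 3.34 in peaks of 2420 and 2514 nt with their midpoint in coding sequence. Both Sall4 peaks were wider than the exon of 2367 nt that held the first library's midpoint. Myc, the proto-oncogene and reprogramming factor, had 5.93 and 5.36, and Tet2, a 5-methylcytosine dioxygenase gene, had 4.81 and 4.59. These 5 regions were below the lower quartile of their library in both libraries.

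The other pluripotency genes were mixed. Tbx3 and Nr5a2 were above the lower quartile in both libraries, Lifr and Il6st in the first only, and Fgf4 and Gbx2 in neither. Tbx3, a T-box factor of self-renewal, had 12.0 and 10.2 at its stop codon. Nr5a2, a nuclear receptor that activates Pou5f1, had 13.2 and 22.8 at its stop codon. The receptor genes for leukemia inhibitory factor differed in place: Lifr had 16.3 and 6.73 at its stop codon, and Il6st 9.72 and 5.17 over a 3' UTR peak of 2052 and 1931 nt. Fgf4, a growth factor gene, had 6.14 and 7.13 in its 3' UTR. Gbx2, a homeobox gene, had 6.67 and 5.04 at its start codon, and a further region with 5.12 at the stop codon in the first library and 4.78 with its midpoint in coding sequence in the second. Lifr was the member whose values differed most between the libraries.

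Transcripts of the m6A machinery were themselves in the map. Among the writer genes, Wtap had 6.02 and 5.55 in its coding sequence and 9.86 and 22.1 in an exon of another Wtap transcript. Rbm15, an RNA-binding subunit, had 9.75 and 7.02 over 3215 and 3272 nt, and Cbll1, a ubiquitin ligase subunit, 14.0 and 7.47. Mettl3 and Mettl14 had no peak in either library. Both demethylase genes had a region. That of Fto had 7.19 and 6.12 in coding sequence, and that of Alkbh5 had 6.41 in coding sequence in the first library and 6.25 with its midpoint at the start codon in the second. Of the readers, Ythdf1 had 3.94 and 5.10, Ythdf3 10.5 and 7.64, and Ythdf2 7.03 and 7.92 in coding sequence and 12.1 and 46.5 at its stop codon. Ythdc1, the nuclear reader, had 36.1 and 45.3 in an exon of another Ythdc1 transcript. Virma, a scaffold subunit, had a peak in each library but at sites that did not overlap.

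Developmental signalling held 42 regions in 29 genes, 12 of which had several. Among receptors, Egfr, the epidermal growth factor receptor, had 160.6 and 128.0 at a region whose midpoint lay in the 3' UTR in the first library (chr11, 16911830 to 16912139) and at the stop codon in the second. Its first-library value of 160.55 recurred exactly at another region. Notch1 had 76.0 and 33.2 in its 3' UTR and 14.7 and 9.50 in coding sequence. Igf1r, the receptor of insulin-like growth factor, had 17.3 and 19.2 in coding sequence and 41.7 and 18.8 at the stop codon, and Ptch1, the Hedgehog receptor, had 5.08 and 4.25 in coding sequence. The strongest region of each of these 4 receptors lay between 8.84 for Ptch1, in an intron of the transcript used, and 160.6 for Egfr in the first library.

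Among ligands and signal carriers, Dll1, a Notch ligand, had 34.0 and 178.2 in its 5' UTR, where 24 and 29 tags were listed, and 19.2 and 14.2 in coding sequence. Nodal had 5.47 and 8.78 in coding sequence and a further region with 11.2 at the stop codon in the first library and 9.39 with its midpoint in the 3' UTR in the second. Bmp4 had 10.6 and 9.16 in coding sequence. Irs1, an insulin receptor substrate, had 29.7 and 42.9. Smad7, an inhibitor of the TGF-beta pathway, had 3 regions between 4.71 and 13.4 over both libraries, and Axin2, an inhibitor of Wnt signalling, had 21.9 and 12.4. The Dll1 5' UTR region was the one whose enrichment differed most between the libraries among these genes.

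Of the 29 regions of chromatin regulators, 23 lay in coding sequence, beside 48.6% of all regions of the map. The list was not matched to the map for exon length, and this difference was not tested. When all peaks of the first library were counted, 23 of the 40 genes had a peak in place of 15. Kmt2d, a histone H3 lysine methyltransferase gene, had 4 regions between 5.26 and 10.8 over both libraries. Kdm6b, a histone H3 lysine demethylase gene, had 15.5 and 12.5 over 2759 and 2610 nt. Ep300, a histone acetyltransferase gene, had 9.31 and 9.95 in its 5' UTR. Its region classed as coding sequence had 7.70 and 7.01 over 2478 and 2235 nt. Suz12, a Polycomb subunit, had 13.8 and 22.6 at its stop codon. Crebbp, the paralog of Ep300, had 14.9 and 12.5, and Arid1b, a subunit of the BAF remodeling complex, had 27.9 and 33.1.

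The 11 regions of the ectoderm and neural list had median enrichments of 17.9 and 17.4, beside 15.5 over all shared peaks and 6.04 and 5.11 for the pluripotency list, and these differences carry no test. Nes, an intermediate filament gene of neural progenitors, had 9.90 and 16.01 in coding sequence. Gli2, of the Hedgehog pathway, had 9.25 and 6.45 in coding sequence and 17.2 and 17.4 in its 3' UTR. Sox1, a marker of early neural cells, had 72.3 and 67.0 in coding sequence, and Sox3, of the same family, 118.6 and 53.5. Pax6, a regulator of eye and brain development, had 60.3 and 128.0 in its 3' UTR. Gli3, a transcription factor of the Hedgehog pathway, had 43.6 and 16.7. Of the mesoderm and endoderm list, Gsc had 208.4 and 77.5 at its stop codon, Sox7 137.6 and 176.5 in its 3' UTR and Meis1 24.8 and 25.5. The median width of these 3 regions was 331 nt in the first library and 253 nt in the second. Both Sox7 values recurred exactly at another region, 137.61 in the first library and 176.5 in the second. How far low input set these ratios was not tested. Among immediate early genes, Junb had 4.60 and 6.20, Jund 4.68 and 4.17 and Ier2 3.61 and 2.86, while Egr2 had 33.5 and 154.4. Long noncoding RNAs with a region were Tug1 with 19.7 and 10.8 and Meg3 with 17.2 and 18.3.

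Each scramble library was paired in the authors' tables with a Mettl14 and a Mettl3 knockdown library of its own set. Over all scramble peaks, 56.7% of the first library's and 54.1% of the second library's overlapped a peak of the Mettl14 knockdown library, and 54.6% and 58.1% a peak of the Mettl3 knockdown library. For peaks of the map the shares were 75.4% (74.1 to 76.6) and 62.2% (60.8 to 63.6) with Mettl14 knockdown, and 74.0% (72.7 to 75.3) and 67.6% (66.2 to 69.0) with Mettl3 knockdown. The 2 tables of a set share their scramble library, so each is given by itself. By region, 2187 of 4408 had an overlapping peak in all 4 knockdown libraries and 506 in none.

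Overlap differed by where a peak lay, and the classes also differed in width. Coding-sequence peaks had an overlapping Mettl14 knockdown peak in 81.6% (79.9 to 83.1) of the first library's and 74.3% (72.4 to 76.1) of the second library's cases. The 3' UTR gave 79.1% (76.2 to 81.7) and 55.3% (51.8 to 58.6), and the stop codon 73.6% and 52.9%. With Mettl3 knockdown, coding sequence gave 80.0% and 76.3%, the 3' UTR 77.9% and 67.3%, and the stop codon 74.3% and 64.3%. Peaks with no listed gene gave 55.0% and 40.5% with Mettl14 and 50.0% and 43.1% with Mettl3 knockdown. The gap between coding sequence and 3' UTR was thus 19.05 percentage points (Newcombe interval 15.2 to 22.9) in the second Mettl14 table and 2.43 points (-0.66 to 5.71) in the first. Among peaks of at least 400 and under 800 nt, a range chosen after seeing the data, it was 15.9 points (9.68 to 21.9) and -0.69 points (-5.63 to 4.54). In the Mettl3 tables it was 9.04 points (5.42 to 12.8) in the second and 2.11 (-1.06 to 5.45) in the first, and 4.73 (-1.22 to 10.8) and -2.65 (-7.62 to 2.60) in that range of width.

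**Figure D5:**
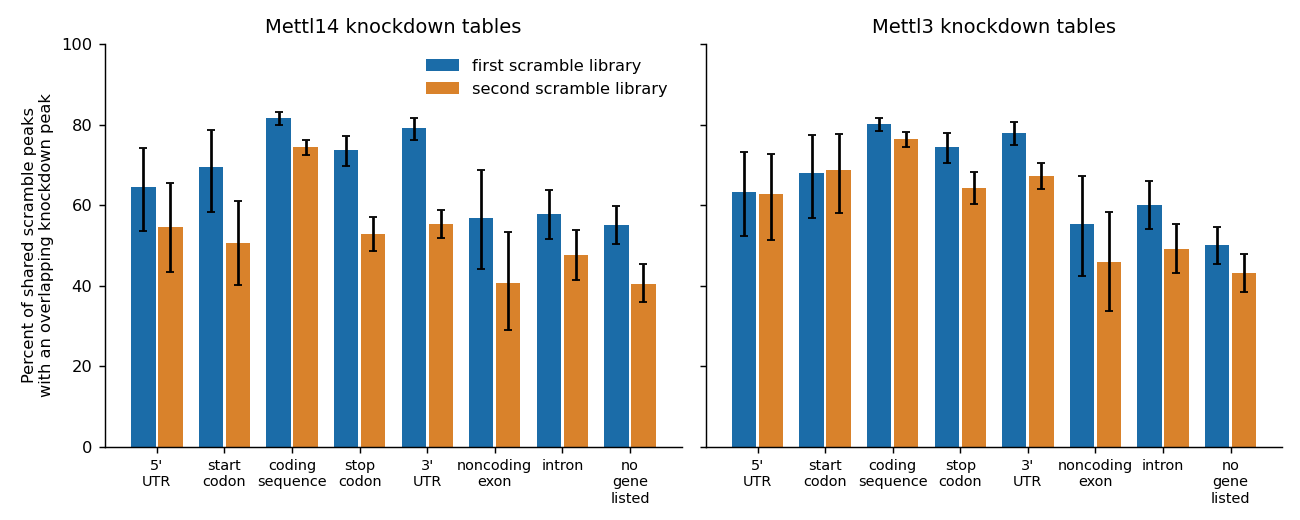
Percent of shared scramble peaks of each class with an overlapping peak in the Mettl14 (left) and Mettl3 (right) knockdown library of the same set, with 95% Wilson intervals. Coding-sequence peaks stand at 74.3% to 81.6% in the 4 tables, and 3' UTR peaks of the second library at 55.3% with Mettl14 knockdown.

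Named regions fell on both sides. The coding-sequence regions of Sox2, Klf4 and Sall4 and the Egfr region had an overlapping peak in all 4 knockdown libraries, while the Gsc and Sox7 regions and the 5' UTR region of Dll1 had one in none. Overlap says that a peak was called and not that its enrichment was the same. Knockdown efficiency was not measured in these tables.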

How the data were processed

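The authors deposited 4 tables of m6A peaks, each pairing a knockdown with a scramble IP library. Peaks were called with MACS on every IP library relative to its input, per the file headers, and the authors list for each the count of tags within it, the fold enrichment (ratio of IP to input), an enrichment scaled per table, a signed fold score of knockdown over scramble, and the false discovery rate in percent, at most 9.99%. The build was mm10, and the tools named, per the submitters' processing notes, were TopHat2 2.0.6 and Bowtie 0.12.7, cutadapt 1.1, Picard 1.74, SAMtools 0.1.18 and CASAVA 1.8.2. Not given in the sources used here are the MACS version, the Ensembl release and how strand was assigned.

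Scramble peaks were rebuilt from both tables of a set and joined across the sets by 1 nt on the same strand. Scramble enrichment of peaks found in both libraries of a table was solved from the authors' signed fold score, and it agreed within 0.01 with the deposited value in all 1558 and 1168 peaks that had both. Of 5340 listed gene IDs, 5280 were in GENCODE M21. The midpoint of a peak was placed on 1 transcript per gene (APPRIS principal, then basic, then longest coding sequence), with windows of 200 nt at start and stop codons. With 2 libraries whose peaks were called separately, no model was fitted and no p-value is given. The 95% Wilson intervals and the Newcombe intervals cover counting error over peaks or genes only. They do not measure the spread between libraries and do not replace a test. Overlaps, positions and the recovery of enrichment were tested on simulated data. Python 3.11.15, pandas 2.3.3, numpy 2.4.6, scipy 1.17.1 and matplotlib 3.10.9 were used.

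Named genes were the 8 with the most regions, the 8 with the highest lower enrichment, 3 regions per position class, all members of the m6A machinery and pluripotency lists and up to 4 members of other lists. Of the genes so named, 2 are not reported here. The rule had ranked by tags. As scramble tags were listed for part of the shared peaks only, ranks were taken on the lower enrichment of regions at least 300 nt wide in both libraries. Junb, Jund, Ier2, Pax6, Ptch1, Igf1r, Nodal, Bmp4, Smad7, Axin2, Kmt2d, Ep300, Gsc, Sox7, Twist1, Nes, Gli2, Virma and Gusb were added from the lists after their values were seen. The members and lists were chosen with earlier results of these data known.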

Additional observations from a re-analysis of the deposited data

How the results depend on the processing

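Removing peaks with a listed false discovery rate above 1% left 2505 regions in place of 4408 and 2086 genes in place of 3290, of which 11.5% had several regions. Median width became 858 nt, and 11.9% of exonic peaks lay at the stop codon, 65.0% in coding sequence and 18.8% in the 3' UTR. The planned limits of 1% and of 20 tags could only be applied where the tables list these values for scramble peaks. Removing peaks with under 20 listed tags gave a median enrichment of 14.9 and overlaps of 77.1% and 63.7% with Mettl14 and of 75.9% and 69.3% with Mettl3 knockdown peaks, in the first and second library. This removal could reach only peaks that at least 1 knockdown table lacked. The filter itself therefore favours higher overlaps, and these values are no check of the overlap shares. A stop codon window of 400 nt gave 26.3% at the stop codon, 50.9% in coding sequence and 15.3% in the 3' UTR, no window gave 65.8% and 29.7% in the last 2, the class covering most of a peak gave 6.55%, 61.1% and 27.7%, and the longest transcript gave 12.5%, 53.5% and 22.2%. The excess of GGACT over stretches outside peaks was 18.8 percentage points for whole peaks, 14.9 for the central 200 nt and 0.33 for DRACH. With all peaks of 1 library alone, values ran from 21.05% to 26.4% for genes with several peaks, from 538 to 651.5 nt for width, from 17.5 to 17.7 for enrichment, from 14.2% to 16.1% for the stop codon, from 53.4% to 57.8% for coding sequence, from 20.7% to 24.2% for the 3' UTR, from 63.2% to 66.6% for the last exon, from 91.1% to 93.7% for long internal exons, from 18.3 to 19.3 points for GGACT, from 16 to 23 chromatin regulators and from 0 to 1 housekeeping genes. The gap in overlap between coding sequence and 3' UTR turned to -0.69 points (Mettl14) and -2.65 points (Mettl3) in the first library among peaks of at least 400 and under 800 nt. Beyond these limits of the filters, the cause of the changes was not tested. Requiring an overlap of 50% or ignoring strand kept the number of regions between 4191 and 4427. No paired analysis was possible because the results come from no test; overlaps with knockdown peaks were taken within each table, which pairs a knockdown with the scramble library of its own set. Depth was unknown, which limits what the absence of a peak can show.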
